A study of Homo sapiens with 6 samples.

Results

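The genes described here are the fibroblast growth factor (FGF) ligands FGF1, FGF2 and FGF18, the receptors FGFR1, FGFR2, FGFR3, FGFR4 and FGFRL1, the carrier protein gene FGFBP1 and the receptor substrate gene FRS2. They were chosen by gene name and make up 10 of the 58735 genes in the count table. All 10 had 1 protein-coding row and passed the filter on low counts. RNA was sequenced from SKOV3ip1 cells, an ovarian adenocarcinoma line derived from SKOV3, labelled wild type. One group received BARD1 siRNA and the other control siRNA, each 2 µg with 6 µL of Lipofectamine 2000, and both were kept for 48 h. Each group held 3 libraries that the labels call biological replicates. The source labels name tumors, whereas the protocols describe cells in 6-well plates, and the libraries are treated as cultured cells. The study asks how silencing of BARD1, the partner of BRCA1 in a ubiquitin ligase, acts on pathways of tumour angiogenesis, and FGF2 is a classical angiogenic factor. A single cell line was used, and which siRNAs were used is not stated in the labels.

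Most FGFs are secreted proteins that bind heparan sulfate on the cell surface and in the matrix, and activate receptor tyrosine kinases together with it. FRS2, a docking protein bound to the inner face of the membrane, is phosphorylated by the receptors and links them to the RAS and MAP kinase cascade. That cascade induces its own inhibitors, the Sprouty proteins and the phosphatase DUSP6, and transcription factors of the ETV family. In carcinoma, FGF2 acts on the tumour cells and on endothelial cells, and FGFBP1 releases FGF2 from its store in the matrix.

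In BARD1 siRNA cells the transcripts of this family moved in both directions. FGF18 fell 3.28-fold and FGFBP1 2.66-fold, FGFR2 fell 1.94-fold and FGFRL1 1.28-fold. FRS2 rose 1.61-fold, FGF2 1.47-fold and FGFR1 1.23-fold, each over control siRNA with 3 libraries per group. FGF1 passed with a 2.06-fold difference between means of 1.01 and 2.08 CPM (read counts scaled to the size of the library), but its call was lost under several other settings. FGFR3 and FGFR4 did not pass. Of the 10 genes, 4 were thus higher, against 22% of all 15271 genes tested, and 4 were lower, against 20.3%. The threshold was an adjusted p of 0.05 in edgeR's quasi-likelihood test. Since 42.3% of all tested genes passed and the genes were chosen with earlier results of these data known, these counts are a description. With protein-coding genes alone tested, 48.1% passed. In bulk RNA, fewer cells that express a gene and less RNA per cell cannot be told apart.

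The count tables held 16621108 to 17743404 gene counts in each library, and 1 CPM was worth 16.2 to 18.0 reads. BARD1 itself was 44.3 ± 5.85 CPM with control siRNA and 7.38 ± 2.04 CPM with BARD1 siRNA (SD, n = 3 per group; log2 fold change −2.58, edgeR adjusted p = 1.21e-15), with every BARD1 siRNA library below every control siRNA library. Of 11 markers of ovarian carcinoma epithelium all had counts, and their summed level was 4053 to 4435 CPM with control siRNA and 4248 to 4364 CPM with BARD1 siRNA. Most of that sum came from ERBB2 and KRT8. Of the 9 that could be tested 3 were higher and 3 lower, or 66.7% called against 42.3% of all tested genes. CLDN4 rose 3.48-fold, PAX8 1.68-fold and KRT18 by 0.40 on the log2 scale, while KRT7 fell 1.97-fold, EPCAM by 0.24 and ERBB2 by 0.14 on the log2 scale. MUC16 and WT1 were too low to test. The 7 leukocyte markers summed to at most 1.59 CPM in any library, with PTPRC, CD3E, CD68 and CD163 at 0. The 8 endothelial markers summed to at most 2.61 CPM, with FLT1 at 0. The 8 fibroblast and mural markers summed to 29.4 to 30.5 CPM with control siRNA and 19.1 to 25.4 CPM with BARD1 siRNA. Of the 5 that could be tested 1 was lower, or 20% called beside the same 42.3%. This was COL3A1, at a log2 fold change of −0.83. The 4 others did not pass, among them COL1A1 at 0.46 (edgeR adjusted p = 0.0595). The part of these markers in the results below was not tested.

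The start regions of 4 members that passed the threshold are shown so that pairs that moved together and apart can be compared by sequence. Of the 10 genes, 9 had a window in the RefSeq promoter table (GRCh38.p14), and 6 of them had 1 window. From these the 4 with the largest fold changes whose groups did not overlap are printed, cut to the bases outside any annotated exon. Sequences run 5′ to 3′ on the strand of the gene. Capitals mark matches on either strand to the GC box GGGCGG, the box CCAAT or a motif of the transcription factor NF-kappaB. FGF18 at chr5:171419397-171419646 (plus strand) and FGFBP1 at chr4:15938741-15938990 (minus strand) fell. FGF2 at chr4:122826581-122826707 and FRS2 at chr12:69470138-69470348 (both plus strand) rose.
FGF18: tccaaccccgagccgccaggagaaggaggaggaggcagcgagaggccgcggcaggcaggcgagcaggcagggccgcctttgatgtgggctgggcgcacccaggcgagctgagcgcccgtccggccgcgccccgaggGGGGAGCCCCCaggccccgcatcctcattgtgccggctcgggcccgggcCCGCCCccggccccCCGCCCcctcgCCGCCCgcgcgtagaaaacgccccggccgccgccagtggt
FGFBP1: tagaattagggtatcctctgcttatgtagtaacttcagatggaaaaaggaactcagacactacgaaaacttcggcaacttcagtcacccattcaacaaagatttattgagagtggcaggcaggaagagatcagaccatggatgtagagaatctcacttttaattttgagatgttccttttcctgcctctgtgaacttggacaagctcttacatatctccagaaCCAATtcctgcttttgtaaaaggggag
FGF2: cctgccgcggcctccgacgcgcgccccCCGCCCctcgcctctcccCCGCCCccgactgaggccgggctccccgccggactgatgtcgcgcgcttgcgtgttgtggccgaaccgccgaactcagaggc
FRS2: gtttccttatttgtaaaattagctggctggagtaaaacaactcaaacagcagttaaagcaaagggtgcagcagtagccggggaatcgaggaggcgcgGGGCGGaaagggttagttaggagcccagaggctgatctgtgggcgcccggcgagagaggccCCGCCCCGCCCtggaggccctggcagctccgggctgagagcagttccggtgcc
The motifs were searched on both strands in the 250 bases before the RefSeq start, also for FGF2 and FRS2, whose printed stretches are shorter. The GC box occurred 3 times each before FGF18, FGF2 and FRS2 and did not occur before FGFBP1. At least 1 match was present in 42.6% of 35116 promoter windows of this length, which were not matched for GC content. In FRS2, 2 of the 3 matches overlap each other. The box CCAAT was found before FGFBP1 and not before the other 3, and was present in 32.0% of all windows. The NF-kappaB motif matched at 2 overlapping positions before FGF18, and 9.96% of all windows held it. No match to the AP-1 motif TGANTCA, held by 6.57% of windows, to TATAAA, held by 10.7%, or to CACGTG, held by 6.34%, lay before any of the 4 starts. The core TGACG, held by 21.2% of windows, occurred once before FGF2, outside the printed bases. GC content of the 250 bases was 78.8% for FGF18, 75.2% for FGF2, 60.8% for FRS2 and 40.8% for FGFBP1, against a median of 58.0% over all windows. FGFBP1 thus stood apart from the other 3 in base composition, and the printed pair that fell did not share it. FGFR2, with more than 1 window, and FGFRL1 also fell and are not printed. The 1 window of FGFRL1 had a GC content of 67.6% and 4 matches to the GC box.

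Among the ligands, FGF18 showed the largest change. FGF18 (ENSG00000156427, GRCh38 chromosome 5, 171419656 to 171457623, plus strand) signals mainly through FGFR3 and FGFR2 in bone and cartilage growth, and is also made by ovarian carcinoma cells. Its levels were 32.6, 32.3 and 30.8 CPM in the control siRNA libraries and 10.2, 8.23 and 10.7 CPM in the BARD1 siRNA libraries. Every BARD1 siRNA library lay far below the control siRNA range, and the spread within each group was small. The difference was a log2 fold change of −1.72 (SE 0.12, edgeR adjusted p = 5.07e-18), from 31.9 ± 0.947 to 9.71 ± 1.31 CPM (SD, n = 3 per group).

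FGF2 (ENSG00000138685, GRCh38 chromosome 4, 122826708 to 122898236, plus strand) encodes basic FGF, a mitogen of endothelial and many other cells that leaves the cell without a signal peptide. Its levels were 252, 240.0 and 255 CPM with control siRNA and 348, 376 and 369.9 CPM with BARD1 siRNA. The groups did not overlap, and the lowest BARD1 siRNA library was well above the highest control. The log2 fold change was 0.55 (SE 0.05, edgeR adjusted p = 1.19e-13). Of the exonic bases of FGF2, 11.9% are shared with exons of NUDT6 on the opposite strand, and the labels do not state whether counting used strand. Summed over the 3 libraries of a group, NUDT6 held 257 counts in controls and 241 after silencing, against 13107 and 18442 for FGF2.

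FGF1 (ENSG00000113578, GRCh38 chromosome 5, 142592178 to 142698070, minus strand) encodes acidic FGF, which binds all FGF receptors. It was close to the limit of the test, with 26, 16 and 11 counts in the control siRNA and 44, 23 and 38 counts in the BARD1 siRNA libraries. These correspond to 1.48, 0.939 and 0.61 CPM against 2.71, 1.36 and 2.18 CPM, and the groups overlapped. The log2 fold change was 1.04 (SE 0.42, edgeR adjusted p = 0.0385), with a 95% interval from 0.21 to 1.88. The call was lost with upper-quartile factors, library size alone, DESeq2 or no filter on low counts, at adjusted p-values of 0.0511 to 0.0906. It was also lost without control siRNA replicate 2 or 3 or BARD1 siRNA replicate 1 or 3, at adjusted p-values of 0.0851 to 0.199.

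The other 19 genes of the FGF family were mostly silent in these cells. No count was found for 9 of them in any library, and 17 were too low to test. FGF5, a ligand that limits hair growth, was the 1 gene of these 19 that passed. It was 6.26, 6.16 and 7.60 CPM with control siRNA and 9.91, 11.1 and 10.1 CPM with BARD1 siRNA, without overlap. Its log2 fold change was 0.63 (SE 0.17, edgeR adjusted p = 0.0014). FGF12, an intracellular member of the family that is not secreted, had a log2 fold change of −0.02 (SE 0.33, edgeR adjusted p = 0.97).

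**Figure D1:**
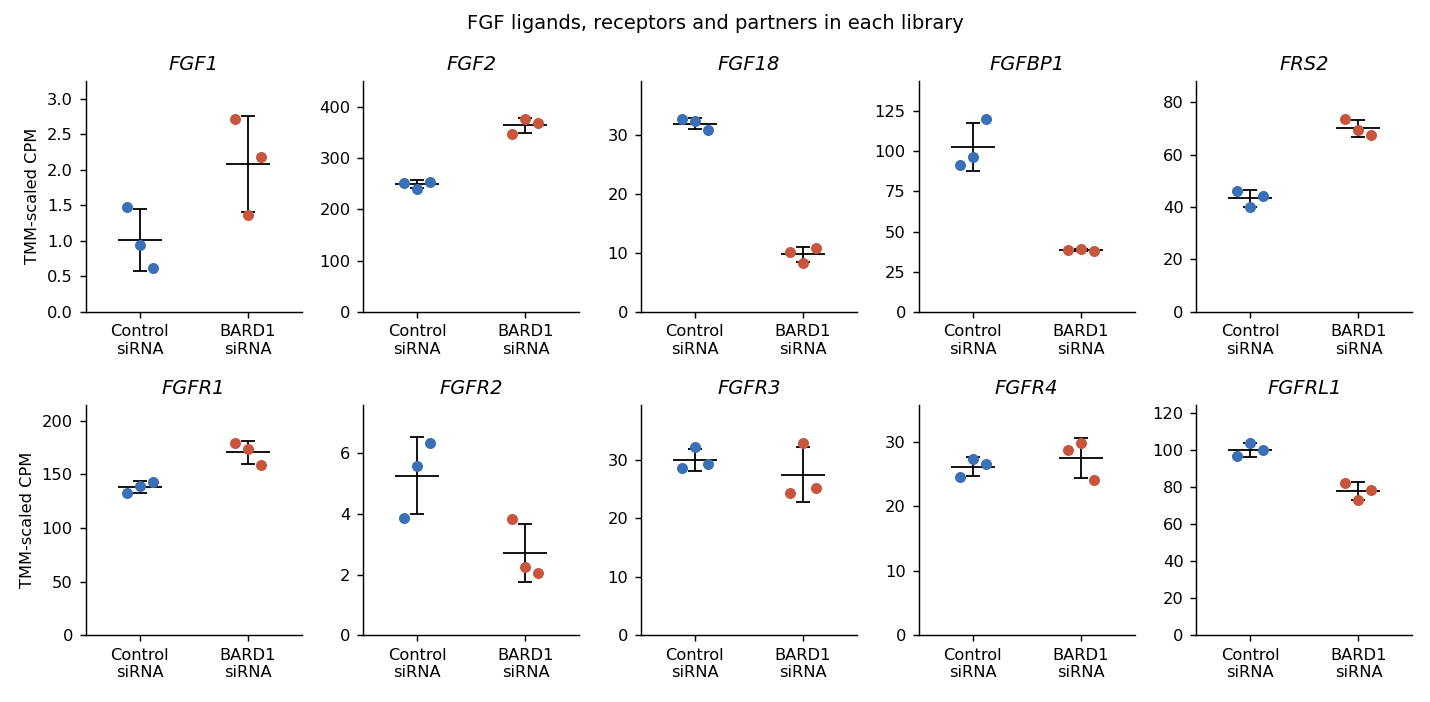
Level of each gene in each library, in CPM scaled by TMM (y axis, from 0) for control siRNA (blue) and BARD1 siRNA (red). Points are libraries, the long bar is the mean of 3 and the whiskers are ± 1 SD. FGF18 and FGFBP1 fall to levels far below the control range, FGF2, FRS2 and FGFR1 lie above it, and the groups overlap for FGF1, FGFR3 and FGFR4.

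The carrier gene FGFBP1 (ENSG00000137440, GRCh38 chromosome 4, 15935569 to 15938740, minus strand) encodes a secreted protein that binds FGF2 and FGF1 and carries them away from heparan sulfate. Its levels were 91.7, 96.8 and 119.9 CPM with control siRNA and 38.4, 39.4 and 38.1 CPM with BARD1 siRNA. Control siRNA replicate 3 was the highest library, while the BARD1 siRNA libraries were close to each other and far below. The log2 fold change was −1.41 (SE 0.08, edgeR adjusted p = 3.84e-19). FGFBP1 fell and FGF2 rose, so that the ligand and its carrier moved in opposite directions. FGFBP3 encodes a related carrier and summed to 49 counts in controls and 28 after silencing (edgeR adjusted p = 0.277). FGFBP2 had none.

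Levels of different genes are compared here per length, as CPM divided by the deposited gene length in kb. For each of the 10 genes this length covers all annotated exons together and is not that of a single transcript. The order of genes depends on that choice. In control siRNA cells FGFBP1 had the highest level of the 10 genes, at 75.6 ± 11.1 CPM per kb, followed by FGF2 at 36.7 ± 1.15, FGFRL1 at 24.2 ± 0.856 and FGF18 at 16.1 ± 0.477 (SD, n = 3). In BARD1 siRNA cells FGF2 was the highest, at 53.8 ± 2.15 CPM per kb, and FGFBP1 was at 28.4 ± 0.498. FGF18 stood at 4.89 ± 0.661 CPM per kb after silencing, next to FGFR3 at 5.67 ± 0.965 and FGFR4 at 5.70 ± 0.637, and these 3 did not differ beyond their spread. FRS2 stood at 5.98 ± 0.445 CPM per kb in control siRNA cells, also within the spread of FGFR3 at 6.19 ± 0.402. FGFR1 lay between, at 9.98 ± 0.387 and 12.3 ± 0.764 CPM per kb, and FRS2 rose to 9.67 ± 0.43. FGFR2 and FGF1 were lowest in both groups. Among all tested genes, FGF18 went from the 80.3rd percentile of level per length to the 51.8th, and FGF1 was at the 4.34th and 10.4th.

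**Figure D2:**
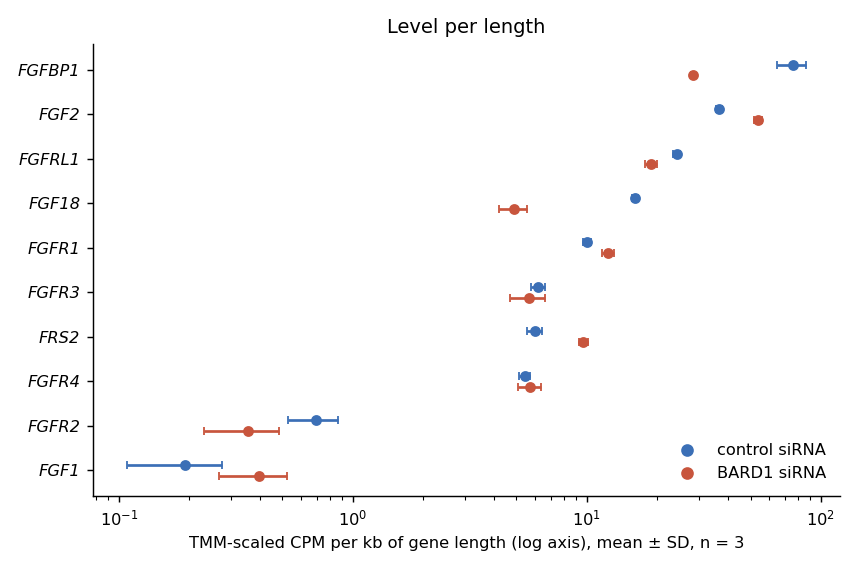
Level per kb of gene length on a log axis for the 10 genes, with control siRNA in blue and BARD1 siRNA in red. Points are means of 3 libraries and whiskers are ± 1 SD. FGFBP1 leads with control siRNA and FGF2 with BARD1 siRNA, and FGF18 drops from 16.1 to 4.89 CPM per kb.

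Among the receptors with a kinase domain, FGFR1 rose and FGFR2 fell. FGFR1 (ENSG00000077782, chromosome 8) is the main FGF2 receptor of mesenchymal and endothelial cells. It was 132, 139 and 143 CPM with control siRNA and 179, 174 and 159 CPM with BARD1 siRNA. The groups did not overlap, with BARD1 siRNA replicate 3 nearest to the control range. The log2 fold change was small, at 0.30 (SE 0.06, edgeR adjusted p = 1.41e-05). FGFR1 shares 0.997% of its exonic bases with LETM2 and 1.13% with AC087623.1, both on the opposite strand. LETM2 held 439 and 371 counts over the groups and AC087623.1 34 and 36, against 7273 and 8597 for FGFR1.

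FGFR2 (ENSG00000066468, GRCh38 chromosome 10, 121478334 to 121598458, minus strand) has an epithelial form, IIIb, and a mesenchymal form, IIIc, which a count per gene cannot separate. It had 68, 95 and 114 counts with control siRNA and 62, 38 and 36 counts with BARD1 siRNA. As normalised levels these were 3.87, 5.58 and 6.32 CPM against 3.82, 2.25 and 2.07 CPM. The groups were only just apart, since the lowest control siRNA library and the highest BARD1 siRNA library nearly met. The log2 fold change was −0.96 (SE 0.26, edgeR adjusted p = 0.00191), with a 95% interval from −1.48 to −0.44.

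FGFR3 and FGFR4 did not pass. FGFR3 (ENSG00000068078, GRCh38 chromosome 4, 1793293 to 1808872, plus strand), the receptor mutated in achondroplasia, was 28.6, 32.2 and 29.2 CPM with control siRNA and 24.4, 32.9 and 25.2 CPM with BARD1 siRNA. BARD1 siRNA replicate 2 was the highest of all 6 libraries, and the other two were the lowest. The 95% interval of its fold ran from 0.793 to 1.06 (edgeR adjusted p = 0.348). FGFR4 (ENSG00000160867, GRCh38 chromosome 5, 177086886 to 177098144, plus strand), the receptor of FGF19 in liver, was 24.5, 27.4 and 26.6 CPM with control siRNA and 28.7, 29.8 and 24.02 CPM with BARD1 siRNA. Its groups overlapped, and the 95% interval of its fold ran from 0.914 to 1.21 (edgeR adjusted p = 0.600).

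FGFRL1 (ENSG00000127418, GRCh38 chromosome 4, 1009936 to 1026897, plus strand) encodes a receptor-like protein that binds FGFs and heparin but lacks the kinase domain. It was 96.8, 104 and 99.96 CPM with control siRNA and 82.4, 73.0 and 78.7 CPM with BARD1 siRNA, so that the groups did not overlap. The log2 fold change was −0.36 (SE 0.06, edgeR adjusted p = 5.07e-06).

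Among the 4 kinase receptors the groups did not overlap for the share of FGFR1, which was higher after silencing, or that of FGFR2, which was lower, while the summed level of the 4 overlapped. Their summed level per length was 22.3 ± 1.10 CPM per kb with control siRNA and 24.03 ± 1.98 CPM per kb with BARD1 siRNA (SD, n = 3 per group). FGFR1 made up 45.4%, 43.6% and 45.5% of that sum in the control siRNA libraries and 52.9%, 48.6% and 52.3% in the BARD1 siRNA libraries. FGFR2 made up 3.10 ± 0.63% and 1.49 ± 0.50%. The share of FGFR3 was 27.8 ± 1.10% and 23.5 ± 2.83%, with the groups only just apart, and that of FGFR4 was 24.3 ± 0.201% and 23.7 ± 0.854%, with overlap. The shares are given as a description, with no test, and depend on each other because they sum to the whole. Their size also depends on the gene length used, which covers all annotated exons.

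**Figure D3:**
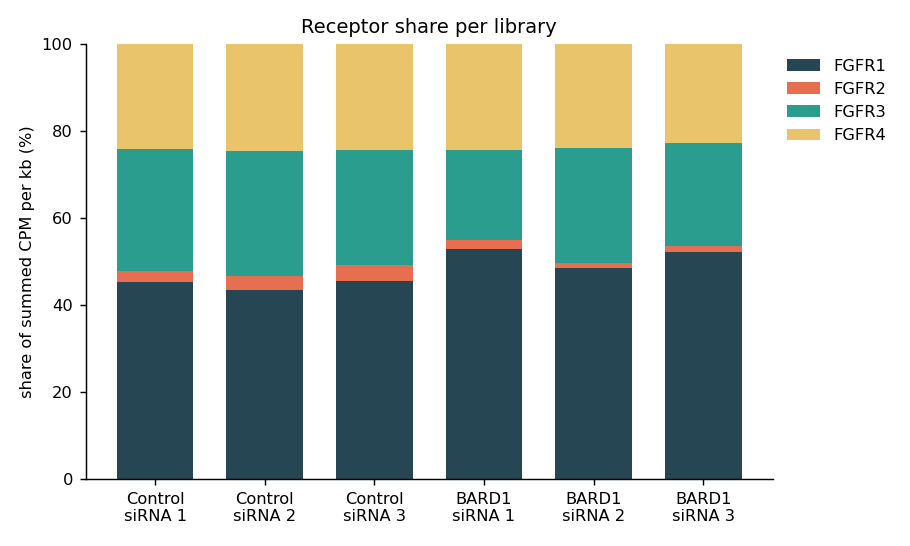
Share of each kinase receptor in the summed CPM per kb of FGFR1 to FGFR4 (y axis, percent) for each of the 6 libraries. FGFR1 takes 43.6% to 45.5% of each control siRNA bar and 48.6% to 52.9% of each BARD1 siRNA bar, and the thin FGFR2 segment narrows.

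FRS2 (ENSG00000166225, GRCh38 chromosome 12, 69470349 to 69579789, plus strand), the docking protein of the receptors, rose. It was 46.1, 39.8 and 44.1 CPM with control siRNA and 73.4, 69.2 and 67.3 CPM with BARD1 siRNA. The groups were well apart, and the log2 fold change was 0.69 (SE 0.08, edgeR adjusted p = 6.76e-11). FRS3, its relative, had a log2 fold change of 0.26 and did not pass (edgeR adjusted p = 0.333). In all, the groups did not overlap for 7 of the 10 genes, against 50.4% of all tested genes. The median log2 fold change of the 10 was −0.03, against −0.01 over all tested genes.

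**Figure D4:**
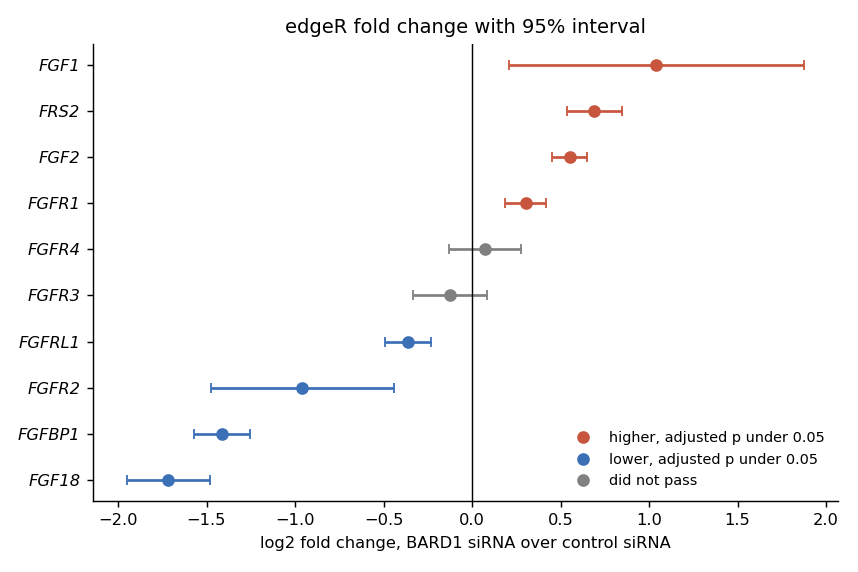
Log2 fold change of BARD1 siRNA over control siRNA from edgeR for the 10 genes (x axis), with 95% intervals, ordered by value. Red genes were higher and blue genes lower at an adjusted p under 0.05, and grey ones did not pass. The order runs from FGF18 at −1.72 to FGF1 at 1.04, whose interval is the widest.

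Genes that act with these members were taken from 7 lists of 118 other FGF pathway genes. Of 88 tested, 33 were higher and 20 lower, or 60.2% called, with a median log2 fold change of 0.07. Over all 15271 tested genes 42.3% were called, 22% higher and 20.3% lower, and the median was −0.01. The listed genes are all protein-coding, and with protein-coding genes alone tested 48.1% were called. The lists were chosen with earlier results of these data known. Their counts below are descriptions beside these shares, and no list was tested. With upper-quartile factors 28 of the 88 were higher and 27 lower, beside 2815 higher and 3975 lower of all 15271 tested genes. Of 15 tested coreceptors and binding proteins, 7 were lower and 4 higher, or 73.3% called against 42.3% of all tested genes (median −0.23). SDC4, a syndecan that carries heparan sulfate, rose from 263 ± 7.66 to 525 ± 12.4 CPM, and FLRT3, a membrane protein that binds FGFR1, rose from 9 ± 0.619 to 22.4 ± 1.61 CPM (SD, n = 3 per group). SDC1 fell by 0.34 and the glypican GPC6 by 0.57 on the log2 scale, while the glypican GPC1 rose by 0.26. FLRT2 fell by 0.84, a call that was lost without BARD1 siRNA replicate 2, at a log2 fold change of −0.61 (edgeR adjusted p = 0.0739).

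Of 16 tested enzymes that make or trim heparan sulfate, 5 were lower and 2 higher (median −0.12). The share called, 43.8%, was close to the 42.3% of all tested genes and below the 48.1% with protein-coding genes alone. The largest fall was that of HS2ST1, the 2-O-sulfotransferase whose mark FGF2 needs for binding. It was 40.9, 40.0 and 40.0 CPM with control siRNA and 20.8, 23.4 and 21.8 CPM with BARD1 siRNA, without overlap, a log2 fold change of −0.87 (SE 0.09, edgeR adjusted p = 3.07e-11). HPSE, the heparanase that cuts the chains, fell by 0.69, the 6-O-sulfotransferase HS6ST1 by 0.46 and the N-sulfotransferase NDST1 by 0.42 on the log2 scale. The 2 that were higher, XYLT2 and EXT1, rose by 0.29 and 0.23.

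In the cascade below the receptors, 9 of 22 tested genes were higher and 3 lower, or 54.5% called (median 0.11). Of all tested genes 42.3% were called, and 48.1% with protein-coding genes alone. With upper-quartile factors 4 of the 22 were higher and 5 lower, beside 2815 higher and 3975 lower of all 15271 tested genes. BRAF rose from 21.3 ± 0.229 to 39.1 ± 1.69 CPM, the adaptor genes GAB2 and SHC1 rose by 0.52 and 0.50, and the ubiquitin ligase gene CBL rose by 0.28 on the log2 scale. BRAF shares 5.29% of its exonic bases with NDUFB2 on the opposite strand, which had more counts than BRAF and a log2 fold change of 0.00. SHC1 shares 7.7% with PYGO2 on the same strand. PYGO2 held 2590 counts in controls and 2063 after silencing, against 5235 and 7121 for SHC1.

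Of 11 tested feedback inhibitors 6 were higher and 1 lower, beside 22% higher and 20.3% lower over all tested genes (median 0.27). SPRY4 was 7.63, 7.22 and 8.10 CPM with control siRNA and 48.4, 41.3 and 46.6 CPM with BARD1 siRNA, the largest change of the list. SPRY2, SPRED3 and DUSP6 also rose, with log2 fold changes of 1.63, 1.39 and 1.18. DUSP6 shares 40.5% of its exonic bases with AC024909.2 on the opposite strand. That gene held 1 count in controls and 5 after silencing, against 275 and 597 for DUSP6. SPRY1 was the 1 that fell, at −1.11 (SE 0.30, edgeR adjusted p = 0.00237), from 4.15 ± 0.846 to 1.92 ± 0.915 CPM, and was named after its value was seen. The Sprouty genes thus did not move as a block.

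Genes that FGF signalling commonly induces were higher in 9 of 12 cases and lower in 0, beside 22% and 20.3% of all tested genes (median 0.71). With upper-quartile factors 9 were higher and 1 lower, beside 2815 higher and 3975 lower of all 15271 tested genes. The list was chosen with earlier results of these data known, so its counts are a description. ETV4, an ETS factor, was 22.8 ± 0.918 CPM in controls and 36.7 ± 0.555 CPM after silencing, and its relative ETV5 was 25.8 ± 2.24 and 42.8 ± 1.42 CPM (SD, n = 3 per group). Both rose. ETV4 shares 1.89% of its exonic bases with DHX8 on the opposite strand, which had more counts than ETV4 and fell by 0.21 on the log2 scale. The largest changes were those of UPP1, a uridine phosphorylase, at 3.16, the stress-response gene IER3 at 2.34, FOS at 1.65 and PHLDA1 at 1.61 on the log2 scale. These genes also answer to many other inputs, which the count table does not separate. IER3 shares 26.5% of its exonic bases with IER3-AS1 on the opposite strand. IER3-AS1 held 5 counts in controls and 12 after silencing, against 9112 and 44267 for IER3. The values of ETV1, EGR1 and CCND1 were −0.32, 0.07 and −0.07, and none of these 3 passed.

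Splicing regulators of FGFR2 went both ways, with 2 of 10 higher and 4 lower, beside 22% and 20.3% of all tested genes (median −0.10). With upper-quartile factors or library size alone 2 were higher and 6 lower. Of all 15271 tested genes, 2815 were higher and 3975 lower with upper-quartile factors, and 2852 and 3906 with library size alone. ESRP2, which favours the epithelial form of FGFR2, fell (log2 fold change −0.70, SE 0.12, edgeR adjusted p = 1.75e-06), with means of 23.1 ± 2.34 CPM in controls and 14.2 ± 0.761 CPM after silencing. It shares 2.68% of its exonic bases with NFATC3, which had more counts and a log2 fold change of −0.23. Its relative ESRP1 was near the limit of detection, with 35 counts in controls and 37 after silencing, each summed over 3 libraries. PTBP2 and CELF1 rose by 0.63 and 0.44, and TIA1 fell by 0.29 on the log2 scale.

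**Figure D5:**
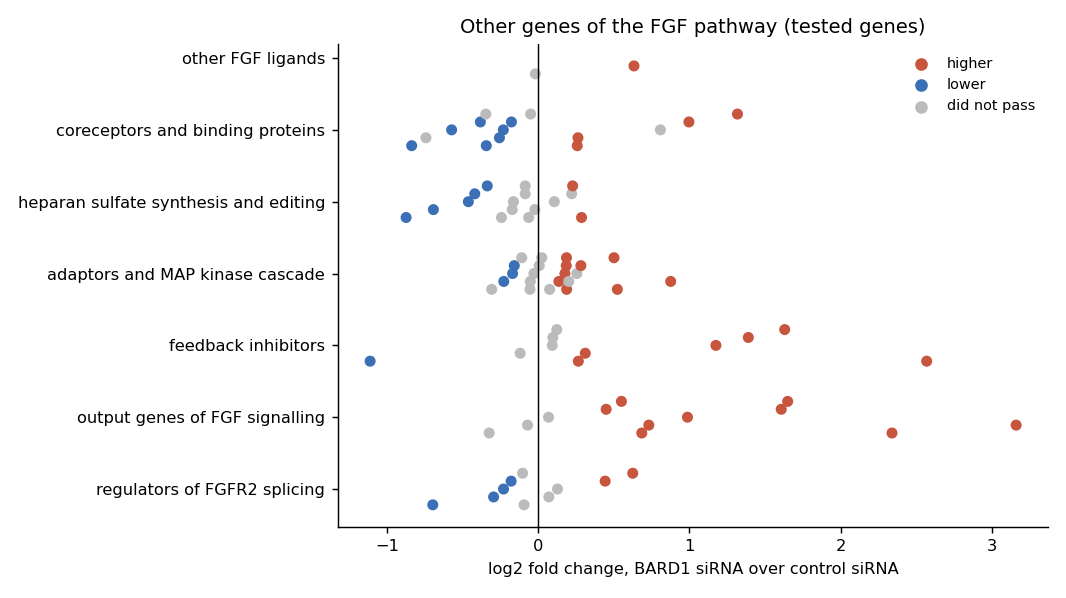
Log2 fold change of BARD1 siRNA over control siRNA (x axis) for the tested genes of 7 lists of the FGF pathway (y axis, points spread vertically only to avoid overlap). Red genes were higher and blue genes lower at an edgeR adjusted p under 0.05, and grey ones did not pass. Output genes reach 3.16 with no blue point among them, and the blue point farthest to the left is SPRY1 at −1.11.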

How the data were processed

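RNA was measured by sequencing of poly(A)-selected libraries from 3 control siRNA and 3 BARD1 siRNA cultures. The authors deposited raw counts for each gene, not normalized, with gene lengths. HISAT2 and CASAVA were used with GRCh38 (hg38), per the submitters' processing notes. The sources used here do not give their versions, the counting program or whether it used strand.

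Counts were tested with edgeR 4.0.16 in R 4.3.3 (robust quasi-likelihood test, TMM factors, group as the only term, two-sided). The filterByExpr function (minimum count 10, minimum total 15) kept 15271 genes, over which p-values were adjusted by Benjamini-Hochberg at a threshold of 0.05. CPM values use TMM-scaled library sizes. Standard errors were derived from the F statistic, and 95% intervals from its degrees of freedom. The biological coefficient of variation was 7.19%. Shared exons were counted in GENCODE release 29. Not every overlap of the named genes outside the 10 members is given. The script was also run on simulated data in which far fewer genes changed, in random directions. That run does not check the scaling where 42.3% of tested genes are called, as here. Alternatives were other scaling (RLE, upper quartile, library size alone), DESeq2 1.42.0, limma-voom (limma 3.58.1), other filters, protein-coding genes only, a replicate block, no robust estimation and leaving out each library.

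The members and lists were chosen with earlier results of these data known. The 10 members are named in every case. Of each pathway list up to 4 genes past the threshold with the largest absolute change are named, with SPRY2, SPRY4, DUSP6, ETV4, ETV5, SDC1, SDC4, GPC1, ESRP1 and BARD1 in any case. Further examples were chosen after their values were seen. No set of genes was tested as a list. The labels call the libraries biological replicates, and p-values rest on the spread between them.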

Additional observations from a re-analysis of the deposited data

How the results depend on the processing

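Over 16 alternatives none of the 10 genes changed direction, and 152 of 160 values kept their side of the threshold. The 8 others were all FGF1. Its log2 fold change was 0.98 under upper-quartile scaling, 0.98 by library size alone, 1.05 in DESeq2 and 1.04 without the low-count filter, at adjusted p-values of 0.0526, 0.0511, 0.0906 and 0.0518, all above the threshold. Leaving out 1 library gave log2 fold changes of 0.77 to 1.42 for FGF1. Its 53 and 105 counts over the groups limit the precision. Over all genes, 51.9% of calls were higher, but 41.5% with upper-quartile factors, which moved the median of all tested genes to −0.07.

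After centring each gene within its group, correlations over all tested genes were −0.0218 to −0.00906 between same-numbered libraries. They were −0.0102 to 0.0260 between libraries of different number. Such small values cannot show whether same-numbered libraries were prepared together. With the replicate block 4 of the 10 genes were higher and 4 lower, and 3390 of all genes were higher and 3122 lower, so that no call of the 10 changed. Receptor shares not divided by gene length were 69.2% for FGFR1, 15.0% for FGFR3 and 13.1% for FGFR4 in controls. After silencing they were 74.7%, 12.05% and 12.04%. The direction of FGFR1 and FGFR2 was the same. Of 32 other named genes 506 of 511 values kept direction and side. The exceptions were FLRT2 and ESRP1, whose log2 fold change of 0.13 was −0.01 and −0.10 without control siRNA replicates 2 and 3 and −0.11 and −0.15 without BARD1 siRNA replicates 2 and 3. Leaving out 1 library gave −0.15 to 0.57 for ESRP1.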
